A study of Saccharomyces cerevisiae with 9 samples.

Results

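The mRNAs of the mitochondrial small ribosomal subunit list were measured by RNA-Seq in 3 yeast strains. The 31 members were taken as a list of loci, made up of the MRPS and RSM genes together with MRP1, MRP2, MRP4, MRP10, MRP13, MRP17, MRP21, MRP51, NAM9, PET123 and YMR31, and their spliced mRNA entries were looked up among the 6952 entries of the transcript table. All 31 were found, and all 31 passed the filter on low counts in every comparison. Of the 31 proteins, 17 are homologues of bacterial small subunit proteins and 12 were grouped as mitochondria-specific, with MRP51 (named bS1m) counted among these. The other 2 do not match the label in the strict sense. RSM22 (YKL155C) is an assembly factor related to methyltransferases, and YMR31 (YFR049W), whose current name is KGD4, is a subunit of the alpha-ketoglutarate dehydrogenase complex.

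All strains were laboratory yeast of the W303 background grown in rich glucose medium (YEPD) at 30 degrees with shaking. In pab1Δpbp1Δ cells, kanMX replaced the coding sequence of PAB1 in cells in which URA3 already replaced that of PBP1. The pbp1Δ cells carried the PBP1 replacement alone and are the matched control for loss of PAB1, which is essential when PBP1 is present, and WT cells carried neither. Each strain had 3 libraries. The mutant libraries came from separate isolates, whereas the study's methods call the WT libraries technical replicates, so p-values in comparisons with WT may rest in part on technical spread. The pab1Δpbp1Δ strain grows more slowly than the others, and growth rate and the loss of PAB1 cannot be told apart.

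The small subunit of the mitochondrial ribosome binds the few mRNAs encoded in mitochondrial DNA, nearly all of them for subunits of the respiratory chain and ATP synthase. Apart from VAR1, which is encoded in mitochondrial DNA and was not analysed here, its proteins are encoded in the nucleus, made in the cytosol and imported. Pab1 coats the poly(A) tails of cytosolic mRNAs, and Pbp1 is a Pab1-interacting protein related to human ataxin-2. Many mRNAs of mitochondrial ribosomal proteins carry a site for Puf3, a Pumilio family protein that binds the sequence UGUANAUA after the stop codon and is known for promoting decay of these mRNAs in glucose medium. Pbp1 has been reported to associate with Puf3.

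The Puf3 site was a feature the members shared that the list itself did not use. Sequence was read from the R64 reference genome, which is that of strain S288C and not of W303. TGTANATA was present on the sense strand within 250 bases after the stop codon in 29 of 31 members (93.5%), against 910 of 6000 nuclear protein-coding genes (15.2%). The 2 members without it were RSM22 and YMR31, the same 2 that are not structural ribosomal proteins. Of the 29, 24 had 1 site, 4 had 2 sites and RSM19 had 3. The 35 sites began 8 to 139 bases after the stop codon (median 56), and 32 began within 100 bases. The form TGTAAATA made up 20 of the 35 sites (57.1%), against 279 of 1004 sites over all genes (27.8%), and a C stood 2 bases before the motif in 21 of 35 sites (60.0%), against 271 of 995 (27.2%). For contrast, a CCAAT box, the sequence the HAP complex binds, was found on either strand in the 250 bases before the start codon of 10 of 31 members (32.3%), near the 35.4% of all nuclear protein-coding genes. A match describes letters in a window and does not show binding.

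The sites of the 8 members with the largest falls in pbp1Δ against WT and of the 4 with the largest rises in pab1Δpbp1Δ against pbp1Δ are shown, so that the motif and its surroundings can be compared between them. Each is 30 bases of the sense strand, 5′ to 3′, with the motif in capitals. The sites of the members that fell, from the largest fall, are these.
PET123: aaatatgcccaTGTATATAcgtcacttgcg
RSM25: cctaaccaaccTGTATATAattaaaaacaa
MRPS35: ccattattactTGTACATAaaatattctac
MRP4: taacctaaactTGTACATAtgcccatatat
RSM28: tcttacataccTGTAAATAtctagtacgta
RSM26: atcttatatacTGTAAATAgttttatttta
RSM23: cccatttctcaTGTACATAtaaatagataa
RSM24: aacggccccccTGTATATAttatgtatttg
RSM24: tttctctaaaaTGTACATAgttttagcaca
The sites of the members that rose, from the largest rise, are these.
MRPS16: tatgtatatgtTGTATATAtgttttacttg
MRPS16: tctatcagactTGTAAATAatacatctatg
RSM19: gggatctagTGTATATAgatttctagatga
RSM19: atgatatatcaTGTAAATAagatcaagcca
RSM19: cagactcgggcTGTATATAtatatatatat
RSM18: atagttctgtcTGTAAATAtacaatatgta
MRPS8: tatacggaccaTGTAAATAataatattata
The windows lie at chrXV:633220-633249 (plus strand) for PET123 (YOR158W), chrIX:187933-187962 (minus) for RSM25 (YIL093C), chrVII:830212-830241 (plus) for MRPS35 (YGR165W), chrVIII:100429-100458 (plus) for MRP4 (YHL004W), chrIV:1438036-1438065 (plus) for RSM28 (YDR494W), chrX:619111-619140 (plus) for RSM26 (YJR101W), chrVII:267626-267655 (minus) for RSM23 (YGL129C), and chrIV:813142-813171 and chrIV:813097-813126 (minus) for RSM24 (YDR175C). Those of the members that rose lie at chrXVI:528881-528910 and chrXVI:528840-528869 (minus) for MRPS16 (YPL013C), chrXIV:695022-695051, chrXIV:694996-695025 and chrXIV:694968-694997 (minus) for RSM19 (YNR037C), chrV:253886-253915 (minus) for RSM18 (YER050C) and chrXIII:572761-572790 (plus) for MRPS8 (YMR158W). All are downstream of the coding region. TGTAAATA is present in all 4 members with the largest rises, and among the 8 with the largest falls in RSM28 and RSM26. These are the extremes of 2 different comparisons. Over the whole list, 7 of the 20 members with a TGTAAATA site were called higher in pab1Δpbp1Δ against pbp1Δ (35%). Of the 9 members with other forms only, 2 were called higher (22.2%), MRP10 and PET123, the latter shown above among those that fell. Over all entries 18.0% were called higher. Among genes outside the list with TGTANATA in the same window, 150 of 871 rose in this comparison and 130 fell (median 0.04). Among those without it, 884 of 4874 rose and 935 fell (median -0.01). The 20 members with a TGTAAATA site had a median log2 fold change of 0.52 in pab1Δpbp1Δ against pbp1Δ and -0.33 in pbp1Δ against WT, and the 9 members with other forms only had medians of 0.09 and -0.56. The first set also had the shorter coding regions (median 684 bases, against 957), and the part of either feature was not tested. Without replicate 1 of pab1Δpbp1Δ, a library described below, the medians in pab1Δpbp1Δ against pbp1Δ were 0.39 and -0.03.

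**Figure D1:**
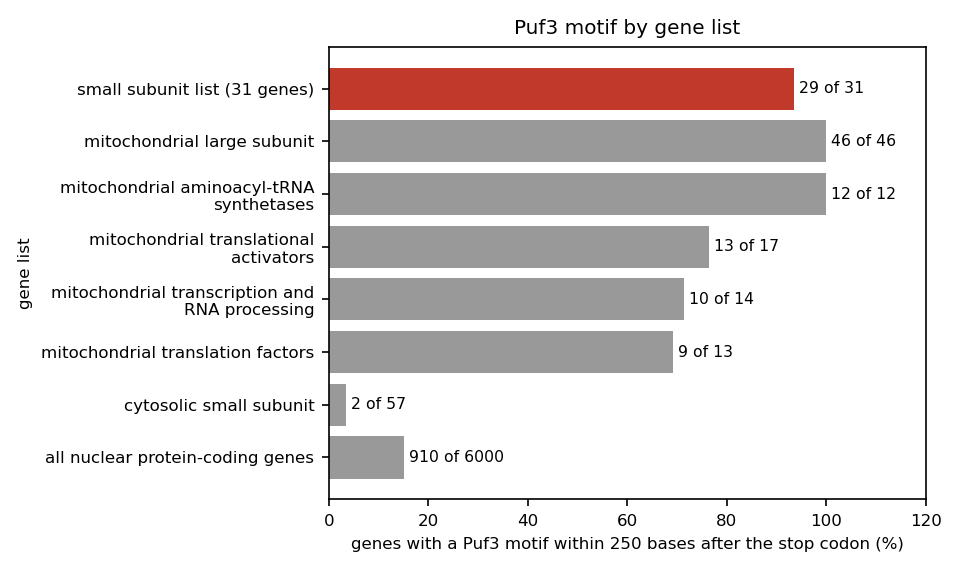
Share of genes (horizontal axis, percent) with TGTANATA on the sense strand within 250 bases after the stop codon, by gene list (vertical axis), with the number of genes beside each bar. The small subunit list stands at 29 of 31, with the mitochondrial large subunit and synthetase genes at 100%, the other mitochondrial lists of 13 or more genes between 69.2% and 76.5%, and far from the cytosolic small subunit genes (2 of 57) and all nuclear protein-coding genes (910 of 6000).

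Total expected counts lay between 73062345 and 100361368 per library, and each member had between 710 and 14232 expected counts in each library. Averaged over the libraries of a strain, counting error (Poisson) was between 0.903% and 3.403% of a member's level. The spread over libraries was above it for all 31 members in pab1Δpbp1Δ and for 26 of 31 each in pbp1Δ and in WT. The labels were checked on the deleted genes. PAB1 stood at 0.501, 0.270 and 0.226 CPM (counts scaled to library size with TMM factors over all 9 libraries) in pab1Δpbp1Δ, at 1472, 1703 and 1516 CPM in pbp1Δ and at 1766, 1803 and 1875 CPM in WT. PBP1 stood at 1.21, 1.48 and 1.20 CPM in pab1Δpbp1Δ, at 1.24, 0.923 and 0.923 CPM in pbp1Δ and at 333 to 350.3 CPM in WT. Both genes were thus low in each library labelled as lacking them. No spike-in was used, so every level is relative to the rest of the library, and a change per cell cannot be told apart from a change in other mRNAs.

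Summed over the 31 mRNAs, the level was 1936, 1391 and 1521 CPM in pab1Δpbp1Δ, 1324, 1230 and 1305 CPM in pbp1Δ, and 1727, 1690 and 1674 CPM in WT. The means were 1616 ± 285 CPM in pab1Δpbp1Δ, 1286 ± 49.35 CPM in pbp1Δ and 1697 ± 27.4 CPM in WT (SD, n = 3 each). The 3 pbp1Δ libraries were the lowest of the 9, and the pab1Δpbp1Δ libraries lay on both sides of WT. Replicate 1 of pab1Δpbp1Δ stood apart from the other isolates: it had the highest CPM of the 3 pab1Δpbp1Δ libraries for 28 of 31 members, against 40.7% of all entries tested. Values without this library are given below for the whole list, for its division by length and for the other gene lists, and were added after seeing the data where they go beyond the counts and medians of the list.

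**Figure D2:**
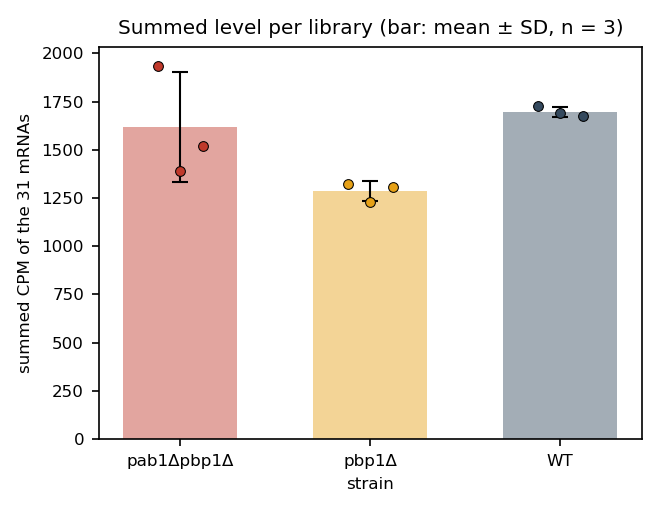
Summed CPM of the 31 mRNAs (vertical axis) in pab1Δpbp1Δ, pbp1Δ and WT (horizontal axis), with 1 point per library and bars for the mean ± SD. The pbp1Δ libraries (1230 to 1324 CPM) lie below all WT libraries (1674 to 1727 CPM), while the pab1Δpbp1Δ libraries spread from 1391 to 1936 CPM.

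In pbp1Δ against WT, the question was whether loss of PBP1 alone changed these mRNAs. Nearly the whole list was lower: 20 of 31 members fell and 1 rose (edgeR's quasi-likelihood test, Benjamini-Hochberg adjusted p under 0.01). Over all 6425 entries tested, 6.24% were called lower and 5.34% higher. The log2 fold change was negative for 30 of 31 members, with a median of -0.38 against 0.01 over all entries, and ranged from -0.70 to 0.29. In 24 of 31 members all 3 pbp1Δ libraries lay below all 3 WT libraries, as did 20.3% of all entries. The fall was shared and moderate: the lowest linear fold change was 0.614, for PET123.

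The mitochondria-specific proteins made up most of the largest falls: 11 of these 12 mRNAs fell, with a median log2 fold change of -0.54. PET123 (mS26), first found through its genetic interplay with a translational activator of COX3, had 33.7, 31.3 and 31.8 CPM in pbp1Δ, against 54.0, 52.8 and 51.4 CPM in WT. This was the largest fall of the list, by 0.70 on the log2 scale (SE 0.05, adjusted p = 3.5e-05). RSM25 (mS23) had 40.4, 36.0 and 39.3 CPM in pbp1Δ, against 63.3, 61.5 and 64.2 CPM in WT, a log2 fold change of -0.70 (SE 0.05, adjusted p = 4.5e-05). The strains were well apart for both genes, with a gap between them several times the spread within either.

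MRPS35 (mS45) had 33.0, 31.9 and 32.3 CPM in pbp1Δ, against 50.6, 51.3 and 52.3 CPM in WT (log2 fold change -0.66, SE 0.04, adjusted p = 2.1e-05). RSM28 (mS46), which has been linked to expression of the mitochondrial COX2 gene, had 43.2, 41.9 and 46.4 CPM in pbp1Δ, against 65.8, 67.4 and 68.6 CPM in WT (log2 fold change -0.62, SE 0.05). RSM26 (mS42), a protein of the superoxide dismutase fold, had 31.3, 28.98 and 29.9 CPM in pbp1Δ, against 45.1, 45.5 and 43.6 CPM in WT (log2 fold change -0.57, SE 0.05). No pbp1Δ library overlapped WT for any of the 3. RSM23 (mS29), the relative of the human GTP-binding protein DAP3, had 69.3, 70.2 and 72.5 CPM in pbp1Δ, against 100.6, 104.8 and 107.6 CPM in WT (log2 fold change -0.56, SE 0.04, adjusted p = 6.0e-05). RSM24 (mS35) had 21.99, 21.9 and 22.03 CPM in pbp1Δ, against 29.4, 31.7 and 34.2 CPM in WT (log2 fold change -0.53, SE 0.06). Both fell with the same separation. MRP10 (mS37), a small protein with paired cysteine motifs, was the mitochondria-specific member that did not pass: it had 23.7, 21.8 and 21.6 CPM in pbp1Δ, against 26.3, 26.6 and 25.1 CPM in WT (log2 fold change -0.21, SE 0.06, adjusted p = 0.020). The 4 others of this group, MRP1 (mS43), MRP13 (mS44), MRP51 and RSM27 (mS33), fell with log2 fold changes between -0.30 and -0.42.

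Among the homologues of bacterial proteins, 8 of 17 fell and none rose, with a median of -0.29. MRP4 (uS2m) had 93.7, 85.5 and 92.7 CPM in pbp1Δ, against 144.1, 139.6 and 139.5 CPM in WT, a log2 fold change of -0.64 (SE 0.05, adjusted p = 6.0e-05). It was the only member of this group among the 8 largest falls, and its coding region overlaps that of YHL005C on the opposite strand by 2 bases. NAM9 (uS4m), MRPS9 (uS9m), MRP21 (bS21m), MRPS17 (uS17m), MRPS5 (uS5m), MRPS28 (uS15m) and RSM10 (uS10m) also fell, with log2 fold changes between -0.29 and -0.49. Another 9 did not pass, with log2 fold changes between -0.03 (MRPS12) and -0.29 (RSM7). RSM7 (uS7m), the largest of them, had 53.7, 48.5 and 48.4 CPM in pbp1Δ, against 65.7, 64.1 and 54.1 CPM in WT (adjusted p = 0.023). RSM19 (uS19m) had 11.98, 9.75 and 10.2 CPM in pbp1Δ, against 13.9, 12.8 and 10.9 CPM in WT (log2 fold change -0.23, adjusted p = 0.13). The pbp1Δ libraries lay below WT for RSM7 by a narrow margin and overlapped WT for RSM19.

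The pair outside the ribosome went opposite ways. RSM22 had 41.6, 39.6 and 41.2 CPM in pbp1Δ, against 57.0, 53.8 and 55.7 CPM in WT, and fell by 0.44 on the log2 scale (SE 0.05, adjusted p = 0.00022) although no Puf3 motif was found in its window. YMR31 was the only member that rose, with 28.9, 27.3 and 30.1 CPM in pbp1Δ, against 25.4, 22.6 and 22.8 CPM in WT (log2 fold change 0.29, SE 0.06, adjusted p = 0.0098). Its libraries did not overlap, but the call was lost when any pbp1Δ library, or WT replicate 2 or 3, was left out. All 29 members with the motif had a negative log2 fold change. Among other genes with the motif, 144 of 868 fell and 32 rose, with a median of -0.05, and among other genes without it 219 of 4810 fell and 294 rose, with a median of 0.02.

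The count in pbp1Δ against WT depended on which libraries set the spread. The biological coefficient of variation was 6.72% over the 6 libraries of pbp1Δ and WT, against 17.0% in the comparison of pab1Δpbp1Δ with pbp1Δ. When 1 spread was fitted over all 9 libraries, only RSM23 was called lower and no member higher (18 entries of 6582 were called in all), whereas the fold changes stayed in place, with a median of -0.38.

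**Figure D3:**
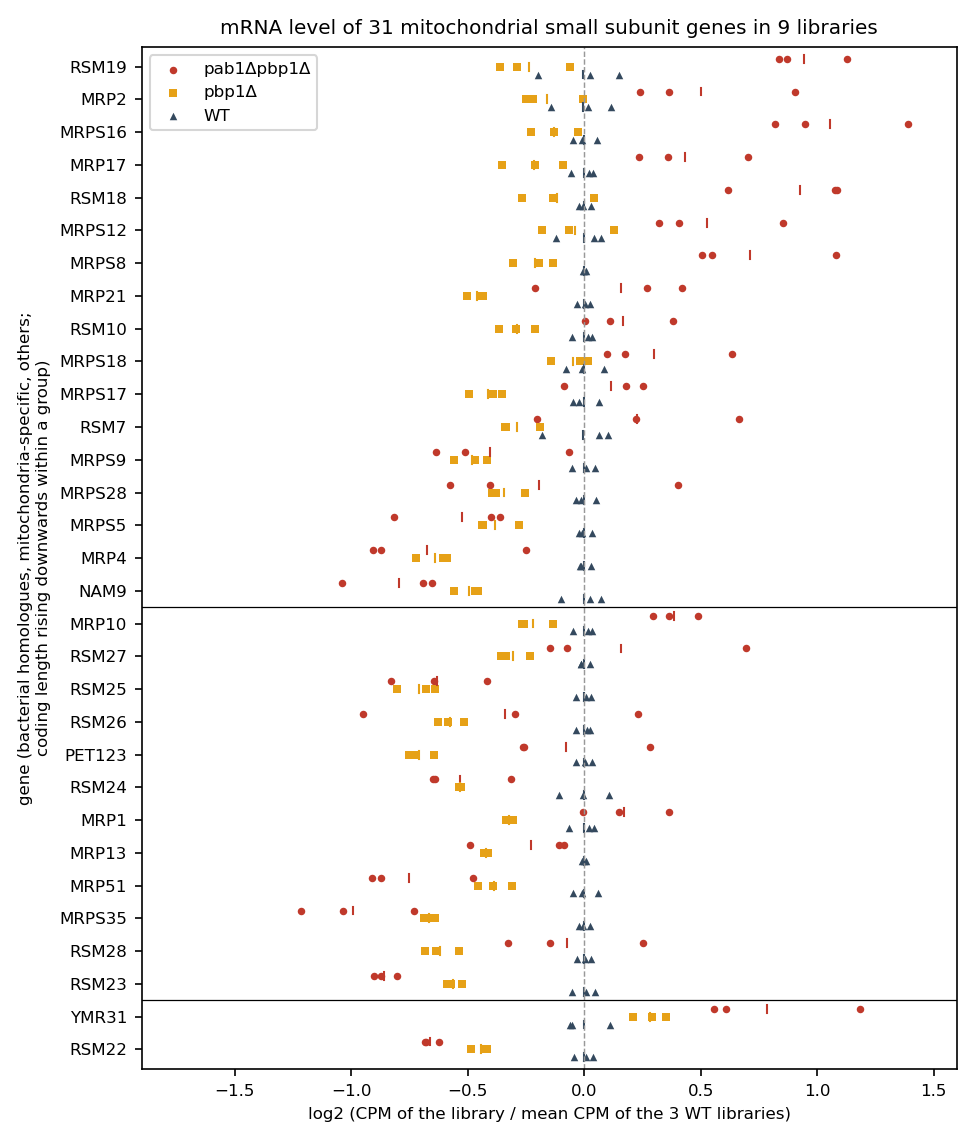
Level of each of the 31 mRNAs (vertical axis) in each library, as log2 of its CPM over the mean CPM of the WT libraries (horizontal axis), with the mean of each strain as a tick and genes in the order of coding length within each of 3 role groups. The pbp1Δ squares lie left of 0 for all genes but YMR31 and part of MRPS12, MRPS18 and RSM18, whereas the pab1Δpbp1Δ circles run from right of WT for the shortest genes to left of WT for the longest.

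In pab1Δpbp1Δ against pbp1Δ, the strains differ in PAB1 alone by construction. Here 9 of 31 members rose and 0 fell by edgeR (22 of 31 had an unadjusted p under 0.05, and DESeq2 gave 14 higher and 1 lower, RSM23). Over all 6573 entries tested, 18.0% were called higher and 16.7% lower. An unadjusted p under 0.05 was found by edgeR for 4002 of them, and DESeq2 gave 1608 higher and 1508 lower of 6864. The log2 fold change was positive for 24 members, with a median of 0.50 against 0.03 over all entries, and ranged from -0.35 to 1.20. In 17 of 31 members all pab1Δpbp1Δ libraries lay above all pbp1Δ libraries, and in 5 all lay below, against 32.8% and 32.0% of all entries. These values share the pbp1Δ libraries with those in the comparison with WT, so a low pbp1Δ value moves the 2 in opposite directions.

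The 4 largest rises were all in small homologues of bacterial proteins. MRPS16 (bS16m) had 61.0, 44.9 and 41.1 CPM in pab1Δpbp1Δ, against 22.8, 21.3 and 19.9 CPM in pbp1Δ, a log2 fold change of 1.20 (SE 0.16, adjusted p = 0.00079). RSM19, a protein of the head of the subunit, had 22.9, 27.4 and 22.3 CPM in pab1Δpbp1Δ, against 11.98, 9.75 and 10.2 CPM in pbp1Δ, a log2 fold change of 1.18 (SE 0.14, adjusted p = 0.00047). Each pab1Δpbp1Δ library lay well above every pbp1Δ library for both genes. RSM18 (bS18m) had 141.7, 102.7 and 141.1 CPM in pab1Δpbp1Δ, against 61.0, 55.6 and 68.9 CPM in pbp1Δ (log2 fold change 1.05, SE 0.15, adjusted p = 0.0010). MRPS8 (uS8m), an early binder of the small subunit rRNA in bacteria, had 109.9, 76.1 and 73.9 CPM in pab1Δpbp1Δ, against 45.5, 42.0 and 47.4 CPM in pbp1Δ (log2 fold change 0.95, SE 0.16, adjusted p = 0.0023). None of these 4 had been called in pbp1Δ against WT.

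MRP17 (bS6m) had 43.9, 34.7 and 31.8 CPM in pab1Δpbp1Δ, against 25.4, 21.2 and 23.4 CPM in pbp1Δ (log2 fold change 0.66, SE 0.14, adjusted p = 0.0063). MRPS17 had 35.3, 28.0 and 33.7 CPM in pab1Δpbp1Δ, against 23.2, 21.1 and 22.7 CPM in pbp1Δ (log2 fold change 0.53, SE 0.12, adjusted p = 0.0070). With these, 6 of the 17 homologues of bacterial proteins rose, with a median of 0.56. Of those that did not pass, MRP2 (uS14m) had 23.5, 16.1 and 14.8 CPM in pab1Δpbp1Δ, against 12.5, 10.6 and 10.8 CPM in pbp1Δ (log2 fold change 0.69, adjusted p = 0.017). MRP21 had 24.3, 15.7 and 21.9 CPM in pab1Δpbp1Δ, against 13.4, 12.8 and 13.5 CPM in pbp1Δ (log2 fold change 0.64, adjusted p = 0.013). MRPS12 (uS12m), the protein nearest the decoding site, had 142.6, 98.7 and 104.7 CPM in pab1Δpbp1Δ, against 86.3, 69.5 and 75.6 CPM in pbp1Δ (log2 fold change 0.58, adjusted p = 0.015). In all 3 the strains did not overlap, and the wide spread among pab1Δpbp1Δ libraries came with replicate 1 at the top.

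Among the mitochondria-specific proteins, 3 of 12 rose, with a median of 0.26. PET123 had 64.2, 44.2 and 44.0 CPM in pab1Δpbp1Δ, against 33.7, 31.3 and 31.8 CPM in pbp1Δ (log2 fold change 0.65, SE 0.16, adjusted p = 0.0099, just inside the threshold). MRP10 had 36.5, 33.5 and 31.9 CPM in pab1Δpbp1Δ, against 23.7, 21.8 and 21.6 CPM in pbp1Δ (log2 fold change 0.60, SE 0.10, adjusted p = 0.0023). MRP1, also of the superoxide dismutase fold, rose with a log2 fold change of 0.50 (SE 0.12, adjusted p = 0.0077). PET123, MRP1 and MRPS17 were the 3 members that fell in pbp1Δ against WT and rose in pab1Δpbp1Δ against pbp1Δ. The lowest values of the list belonged to MRP51 (-0.35), MRPS35 (-0.31), RSM23 (-0.30), NAM9 (-0.29) and RSM22 (-0.22), none of which passed. The pab1Δpbp1Δ libraries lay below all pbp1Δ libraries for each, as they did for 32.0% of all entries.

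Without replicate 1 of pab1Δpbp1Δ, 14 members were higher and 3 (MRP51, MRPS35 and RSM23) lower, and the median was 0.29, while the share called over all entries also grew, to 30.7% higher and 28.3% lower. Without any 1 of the pbp1Δ libraries, 3 members were higher and 0 lower. Calls over all entries dropped in these fits as well, to between 436 and 511 higher and between 424 and 534 lower. The fit with every library had 1185 higher and 1100 lower. MRPS16, RSM19 and RSM18 were called in all 6 fits that left out 1 library and in all 8 other alternatives.

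**Figure D4:**
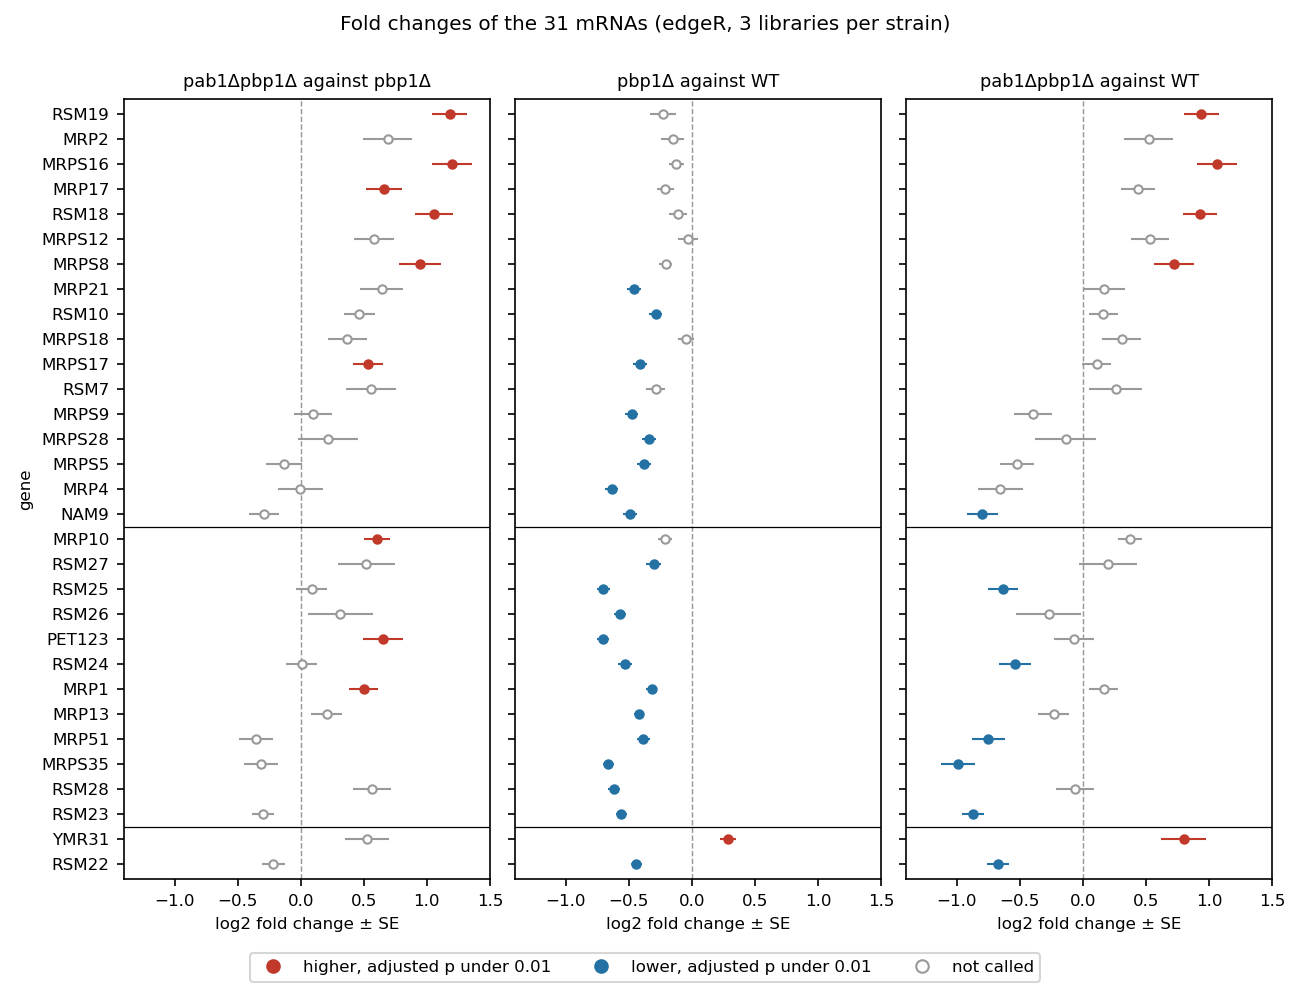
The log2 fold change ± SE (horizontal axis) of each of the 31 mRNAs (vertical axis, same order of genes) in pab1Δpbp1Δ against pbp1Δ, pbp1Δ against WT and pab1Δpbp1Δ against WT, with calls at an adjusted p under 0.01 filled. There are 9 higher in the first panel, 20 lower and 1 higher in the second, and 7 lower and 5 higher in the third, where the calls split along the order of length.

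In pab1Δpbp1Δ against WT, which joins both deletions, the list divided: 7 members fell and 5 rose. Over all 6558 entries tested, 21.6% were called lower and 21.8% higher, so the counts were close to the background, and the median of 0.11 lay near that of all entries (0.03). The median was -0.12 without replicate 1 of pab1Δpbp1Δ, when 11 members were lower and 7 higher and, over all entries, 30.4% were lower and 32.9% higher. Without replicate 3 of pab1Δpbp1Δ 4 members were lower and 4 higher, and without any 1 WT library 4 or 5 were lower and 3 higher. Over all entries, 958 were lower and 816 higher without that replicate 3, against 1417 and 1428 with every library. Without any 1 WT library, 744 to 851 of all entries were lower and 643 to 736 higher. MRPS35, RSM23, NAM9, RSM22, MRPS16, RSM19 and RSM18 were called in all 6 fits that left out 1 library and in all 8 other alternatives. By role, 5 of the 12 mitochondria-specific members fell and 0 rose, while 4 of the 17 homologues of bacterial proteins rose and 1 fell. The share of homologues that rose was near the 21.8% of all entries called higher, and 21.6% were called lower. Role and coding length overlap here. The coding regions of those 5 had 795 to 1353 bases, and those of the 4 homologues that rose 276 to 468. NAM9, a homologue of 1461 bases, fell, and MRP10, mitochondria-specific with 288 bases, had a positive log2 fold change (0.37, not called).

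MRPS35 had 30.9, 22.2 and 25.1 CPM in pab1Δpbp1Δ, against 50.6, 51.3 and 52.3 CPM in WT, a linear fold change of 0.503 (log2 fold change -0.99, SE 0.13, adjusted p = 0.00071). RSM23 had 59.8, 55.8 and 57.0 CPM in pab1Δpbp1Δ, against 100.6, 104.8 and 107.6 CPM in WT (log2 fold change -0.87, SE 0.08, adjusted p = 0.00019). NAM9, known for an allele that suppresses nonsense mutations in mitochondrial genes, had 86.7, 66.3 and 84.5 CPM in pab1Δpbp1Δ, against 143.1, 127.1 and 138.7 CPM in WT (log2 fold change -0.80, SE 0.12, adjusted p = 0.0013). All 3 were also lower in pbp1Δ than in WT, and lower again, short of the threshold, in pab1Δpbp1Δ than in pbp1Δ. MRP51, which acts with the leaders of the COX2 and COX3 mRNAs, had 75.8, 56.2 and 57.7 CPM in pab1Δpbp1Δ, against 109.9, 102.1 and 104.9 CPM in WT (log2 fold change -0.75, SE 0.13, adjusted p = 0.0022). RSM22 had 36.0, 34.5 and 34.7 CPM in pab1Δpbp1Δ, against 57.0, 53.8 and 55.7 CPM in WT (log2 fold change -0.67, SE 0.09, adjusted p = 0.00052). Both had the same stepwise order over the strains. RSM25 had 47.1, 35.5 and 40.2 CPM in pab1Δpbp1Δ, against 63.3, 61.5 and 64.2 CPM in WT (log2 fold change -0.63, adjusted p = 0.0031). RSM24 had 25.6, 20.2 and 20.4 CPM in pab1Δpbp1Δ, against 29.4, 31.7 and 34.2 CPM in WT (log2 fold change -0.54, adjusted p = 0.0086). For this last pair the log2 fold change in pab1Δpbp1Δ against pbp1Δ was 0.09 and 0.01 and did not pass.

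On the other side, MRPS16 had 61.0, 44.9 and 41.1 CPM in pab1Δpbp1Δ, against 23.1, 24.2 and 22.5 CPM in WT (log2 fold change 1.06, SE 0.16, adjusted p = 0.0011). RSM19 had 22.9, 27.4 and 22.3 CPM in pab1Δpbp1Δ, against 13.9, 12.8 and 10.9 CPM in WT (log2 fold change 0.94, SE 0.14, adjusted p = 0.0011). RSM18 had 141.7, 102.7 and 141.1 CPM in pab1Δpbp1Δ, against 68.2, 65.9 and 66.6 CPM in WT (log2 fold change 0.93, SE 0.13, adjusted p = 0.00096). All 3 lay above WT in each library. YMR31 had 53.6, 36.0 and 34.7 CPM in pab1Δpbp1Δ, against 25.4, 22.6 and 22.8 CPM in WT (log2 fold change 0.80, SE 0.18, adjusted p = 0.0064). MRPS8 had 109.9, 76.1 and 73.9 CPM in pab1Δpbp1Δ, against 51.8, 51.9 and 52.3 CPM in WT (log2 fold change 0.73, SE 0.16, adjusted p = 0.0061). The members nearest the threshold without passing it were MRP10 (log2 fold change 0.37, adjusted p = 0.012), MRPS5 (-0.52, adjusted p = 0.012), MRP4 (-0.65, adjusted p = 0.015) and MRPS12 (0.54, adjusted p = 0.017). MRP10 had 36.5, 33.5 and 31.9 CPM in pab1Δpbp1Δ, against 26.3, 26.6 and 25.1 CPM in WT. MRP4 had 118.7, 75.2 and 77.2 CPM in pab1Δpbp1Δ, against 144.1, 139.6 and 139.5 CPM in WT. MRPS12 had 142.6, 98.7 and 104.7 CPM in pab1Δpbp1Δ, against 81.3, 83.0 and 72.6 CPM in WT. MRPS5 had 24.5, 18.3 and 25.1 CPM in pab1Δpbp1Δ, against 31.8, 32.1 and 33.0 CPM in WT. The libraries of these 4 did not overlap WT either, but the share of all entries without overlap was not counted for this comparison. In pab1Δpbp1Δ against pbp1Δ that share was large, with 32.8% all above and 32.0% all below.

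The fold changes also followed the coding length of the members. Length and the grouping by role overlap, and the part of either was not tested. Coding regions ran from 276 bases (RSM19) to 1887 bases (RSM22), with a median of 795, against a median of 1194 over all nuclear protein-coding genes. In pab1Δpbp1Δ against WT the 15 members shorter than the median all had positive log2 fold changes (median 0.44, 5 higher and 0 lower), and 14 of the 15 longer members had negative ones (median -0.52, 0 higher and 6 lower). In pab1Δpbp1Δ against pbp1Δ, 7 of the 15 shorter members rose (46.7%, median 0.60), against 2 of the 15 longer (13.3%, median 0.01). In pbp1Δ against WT, all 15 longer members fell (median -0.49), against 4 of the 15 shorter (median -0.21). The shorter mRNAs were thus the higher ones in all 3 comparisons, and not only where PAB1 was deleted. Over all entries, 21.8% were called higher and 21.6% lower in pab1Δpbp1Δ against WT. The shares were 18.0% and 16.7% in pab1Δpbp1Δ against pbp1Δ, and 5.34% and 6.24% in pbp1Δ against WT. Without replicate 1 of pab1Δpbp1Δ, 14 of the 15 shorter members had positive log2 fold changes in pab1Δpbp1Δ against WT (median 0.30, 7 higher and 0 lower) and 14 of the 15 longer had negative ones (median -0.59, 0 higher and 10 lower). Against pbp1Δ, 11 of the shorter were then higher and 0 lower (median 0.46), and 3 of the longer were higher and 3 lower (median -0.15). Of all entries, 32.9% were higher and 30.4% lower against WT in this fit, and 30.7% and 28.3% against pbp1Δ.

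Across the 31 members, log2 fold change and log2 coding length had a Pearson r of -0.79 in pab1Δpbp1Δ against pbp1Δ. For pbp1Δ set against WT this r was -0.68, and for pab1Δpbp1Δ set against WT it was -0.85. The comparisons share libraries, and genes are not independent replicates, so these are descriptions and carry no p. Over all entries with a RefSeq gene the same r was weaker, at -0.21 (n = 5776), -0.20 (n = 5709) and -0.25 (n = 5770) in the same order of comparisons, and over 46 mitochondrial large subunit genes it was -0.62, -0.68 and -0.70. When replicate 1 of pab1Δpbp1Δ was left out, r over the members was -0.76 in pab1Δpbp1Δ against pbp1Δ and -0.83 against WT. The level of the members in WT (log2 FPKM) showed little relation to their fold changes, with r between 0.11 and 0.14. Over all entries with a RefSeq gene that r was -0.64, -0.31 and -0.66, in the same order of comparisons. What lies behind the relation with length, including any part of RNA quality or library preparation, was not tested.

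**Figure D5:**
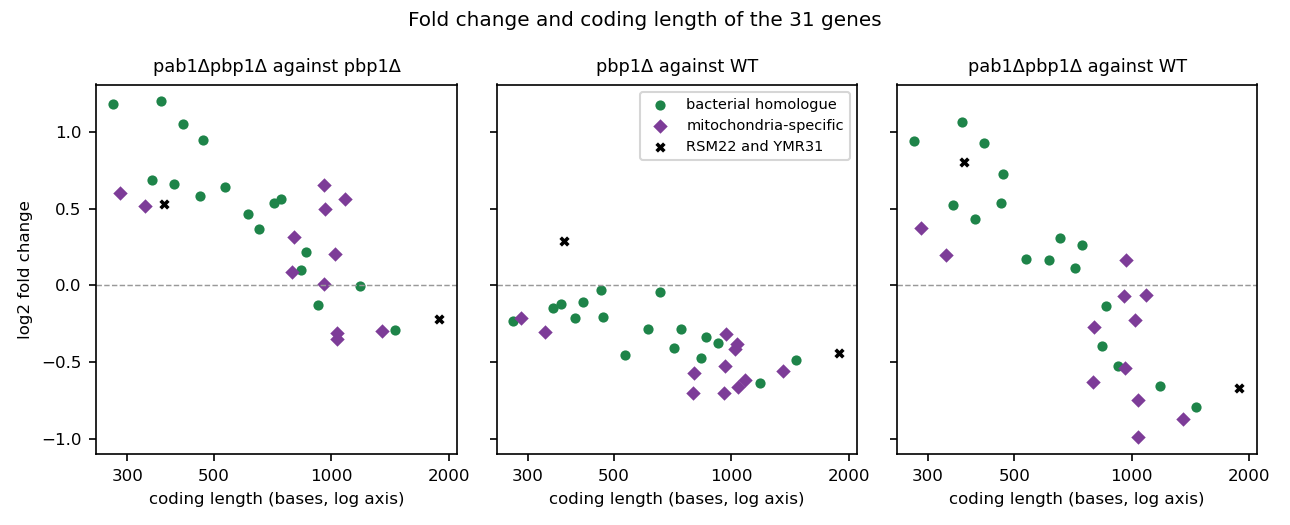
The log2 fold change (vertical axis) of each of the 31 mRNAs against its coding length in bases (horizontal axis, log scale) in pab1Δpbp1Δ against pbp1Δ, pbp1Δ against WT and pab1Δpbp1Δ against WT, with markers by role. The points slope down in each panel (Pearson r -0.79, -0.68 and -0.85), and in the third panel they cross 0 near the median length of 795 bases.

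Levels of different members can be set side by side per length, in FPKM. The members were moderately expressed, with a median over genes of 73.04 FPKM in pab1Δpbp1Δ, 46.5 FPKM in pbp1Δ and 51.9 FPKM in WT. FPKM is scaled to each library's aligned reads and not by TMM, so it was used for the order of genes within a strain only. In WT the order was led by MRPS12 (154.5 FPKM), RSM18 (134.4 FPKM), MRPS9 (122.2 FPKM) and MRPS8 (113.9 FPKM), and ended with RSM24 (28.7 FPKM) and RSM22 (25.5 FPKM), a 6.07-fold range. In pab1Δpbp1Δ, RSM18 (341.8 FPKM) came first, before MRPS12 (297 FPKM), and RSM22 (21.3 FPKM) stayed last, so that the range was 16.0-fold, against 8.07-fold in pbp1Δ. The mRNA levels of the members thus lay further apart in pab1Δpbp1Δ. MRPS16 ranked 5 of 31 in pab1Δpbp1Δ, 14 in pbp1Δ and 17 in WT, and RSM19 ranked 7, 18 and 18 in the same order. NAM9 ranked 21, 12 and 8, and RSM23 ranked 26, 16 and 13. The median coefficient of variation of a member was 17.4% over the pab1Δpbp1Δ libraries, 5.10% over pbp1Δ and 3.15% over WT, so neighbours in the pab1Δpbp1Δ order are often not separable. With replicate 1 left out, the pab1Δpbp1Δ range was 15.5-fold, still led by RSM18 and ended by RSM22, and MRPS16, RSM19, NAM9 and RSM23 ranked 6, 5, 20 and 23.

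Other genes of mitochondrial translation, from lists chosen with earlier results of these data known, are set beside the members. In pbp1Δ against WT, 6.24% of all entries were called lower and 5.34% higher, and with 1 spread over all 9 libraries only 18 of 6582 entries were called. Of the large subunit genes 29 of 46 fell and 0 rose (median -0.36), led by MRPL24 (-0.78) and MRPL40 (-0.68), so the large subunit had about the same median as the small subunit list. Of the aminoacyl-tRNA synthetases of mitochondria 8 of 12 fell (median -0.41), with MSF1 at -0.59 and MSD1 at -0.55. Of the translation factors 7 of 13 fell (median -0.28), with the elongation factor gene MEF1 at -0.74 and the recycling factor gene RRF1 at -0.59. None of these lists had a member that rose. Transcription and RNA processing genes gave 8 lower of 14 (median -0.27), with RMD9 at -0.49 and RPM2 at -0.45, and translational activators gave 3 lower of 17 (median -0.08), with CBP6 at -0.64 and CBP3 at -0.40. Of 4 small subunit genes outside the list, FYV4 (mS41) fell by 0.84 on the log2 scale, and SWS2 (uS13m), QRI5 and EHD3 had log2 fold changes between -0.18 and -0.31 that did not pass. The genes of the cytosolic small subunit did not share the pattern, with 1 lower of 57 and a median of -0.05.

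In pab1Δpbp1Δ against pbp1Δ, 17 of 46 large subunit genes rose (37.0%) and 0 fell (median 0.46), with MRPL20 at 1.21 and MRP49 at 1.17, beside the 18.0% higher and 16.7% lower over all entries. The translation factor genes GTF1 (0.94) and HER2 (0.91), both for the enzyme that makes glutaminyl-tRNA in mitochondria, rose among 13 (median 0.26). The activator genes ATP22 (1.18) and PET54 (0.63) rose and MSS116 (-0.52) fell among 17 (median 0.24). The shares that rose among the factors (15.4%) and the activators (11.8%) were below that of all entries. FYV4 (0.88) and QRI5 (0.84) rose among the 4 small subunit genes outside the list. Of the 14 transcription and RNA processing genes GEP3 rose (0.86) and TRZ1 fell (-0.40), with a median of -0.13. None of the 12 synthetase genes was called by edgeR (4 had an unadjusted p under 0.05, as did 4002 of all 6573 entries). Cytosolic small subunit genes went the other way, with 43 lower of 57 and a median of -0.96. Without replicate 1 of pab1Δpbp1Δ, when 30.7% of all entries were higher and 28.3% lower, 20 of 46 large subunit genes were higher and 1 lower, 6 and 2 of 13 factors, 8 and 3 of 17 activators, 1 and 4 of 14 transcription and RNA processing genes, and 4 and 0 of 12 synthetases. Of the 4 small subunit genes outside the list 3 were then higher, and of the 57 cytosolic ones 54 were lower.

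In pab1Δpbp1Δ against WT 7 of 46 large subunit genes were lower (15.2%) and 9 higher (19.6%), with a median of 0.12. Both shares were below those of all entries (21.6% lower and 21.8% higher). MRPL50 (0.96) and MRPL20 (0.93) rose, and MRPL24 (-0.83) and MRPL40 (-0.80) fell. Synthetases gave 4 lower of 12, led by MSE1 (-0.65) and MSY1 (-0.54), and transcription and RNA processing genes 6 lower of 14, led by RMD9 (-0.79) and SUV3 (-0.69). None of these 2 lists had a gene that rose. Translation factors gave 4 lower, led by TUF1 (-0.72) and MRF1 (-0.69), and 2 higher, GTF1 (1.08) and HER2 (0.65), of 13. Activators gave 2 lower, MSS116 (-0.88) and CBP3 (-0.66), and 2 higher, ATP22 (1.23) and PET54 (0.64), of 17. None of the 4 small subunit genes outside the list was called. An unadjusted p under 0.05 by edgeR was found for 3 of the 4, and for 4300 of all 6558 entries. Cytosolic small subunit genes gave 45 lower of 57, with a median of -1.03. Without replicate 1 of pab1Δpbp1Δ, when 30.4% of all entries were lower and 32.9% higher, 15 of 46 large subunit genes were lower and 11 higher, 5 and 3 of 13 factors, 4 and 5 of 17 activators, 8 and 1 of 14 transcription and RNA processing genes, and 4 and 0 of 12 synthetases. Of the 4 small subunit genes outside the list 1 was then lower, and of the 57 cytosolic ones 56.

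Among 8 regulators, PUF3 itself had 282, 358 and 298 CPM in pab1Δpbp1Δ, 229, 237 and 238 CPM in pbp1Δ and 291, 297 and 309 CPM in WT. It fell in pbp1Δ against WT by 0.34 on the log2 scale (SE 0.05, adjusted p = 0.0014), and its log2 fold change in pab1Δpbp1Δ against pbp1Δ was 0.41 (SE 0.12, adjusted p = 0.019). HAP4, the regulatory subunit of the activator that turns on respiratory genes when glucose is low, had 106.2, 112.4 and 91.8 CPM in pab1Δpbp1Δ, 45.8, 39.0 and 38.8 CPM in pbp1Δ and 63.0, 58.8 and 55.6 CPM in WT. The strains were apart in each pair. HAP4 rose in pab1Δpbp1Δ against pbp1Δ (log2 fold change 1.33, SE 0.12, adjusted p = 0.00020) and against WT (0.80, SE 0.11, adjusted p = 0.00071), and fell in pbp1Δ against WT (-0.52, SE 0.07, adjusted p = 0.0011). HAP5 also rose in pab1Δpbp1Δ, with log2 fold changes of 0.82 against pbp1Δ and 0.71 against WT, and PUF4 (-0.73) and SFP1 (-0.51) fell against WT. In pbp1Δ against WT, 5 of the 8 regulators fell and 0 rose, beside 6.24% lower and 5.34% higher over all entries. With replicate 1 of pab1Δpbp1Δ left out, PUF3 was also called higher against pbp1Δ (0.48, adjusted p = 0.0016 by edgeR) and HAP2 lower against WT (-0.47, adjusted p = 0.0025), and the calls of the other 6 regulators did not change. Whether these regulators bear on the members was not tested.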

How the data were processed

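RNA-Seq of WT, pbp1Δ and pab1Δpbp1Δ yeast was analysed, with 3 libraries of each. Per the labels and the study's methods, a strand-preserving mRNA kit was used with oligonucleotides that block rRNA. The expected counts deposited by the authors are RSEM 1.3.0 estimates per transcript from Bowtie 1.0.0 alignments to a yeast transcriptome (build R64), not normalized. The strand setting was not given in the sources used here. The authors also deposited FPKM, which was used for levels within a strain. Counts were rounded, filtered (filterByExpr, minimum count 10), scaled by TMM and tested for each pair of strains on 6 libraries with edgeR 4.0.16 (quasi-likelihood, robust) in R 4.3.3. Benjamini-Hochberg adjustment ran over all entries tested, with calls at an adjusted p under 0.01. DESeq2 1.42.0, other scalings, filters and tables, and each library left out were alternatives. Per-library values were given for the 8 members with the largest called changes in each direction and 3 uncalled members per comparison. From the lists, the 2 largest called in each direction were named. The count test was also run on simulated counts, with far fewer changed entries than were called in pab1Δpbp1Δ against pbp1Δ. That run does not measure the error rate in these data. Motifs were searched in the RefSeq R64 genome. The members, lists and tests were chosen with earlier results of these data known. Counting error (Poisson), averaged over the libraries of a strain, was at most 3.403% for a member in any strain.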

Additional observations from a re-analysis of the deposited data

How the results depend on the processing

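No member called in a comparison changed the sign of its log2 fold change under any alternative run there. Of the members not called, 7 changed sign in pab1Δpbp1Δ against pbp1Δ (RSM24 and RSM25 among them), 2 in pbp1Δ against WT (MRPS12 and MRPS18) and 5 between pab1Δpbp1Δ and WT. In pab1Δpbp1Δ against pbp1Δ, 9 members were higher and 0 lower, against 15 and 0 with upper-quartile scaling, 14 and 1 with DESeq2 and with 1 spread over all 9 libraries, and 16 and 1 at an adjusted p under 0.05. Calls over all entries grew too, from 1185 higher and 1100 lower of 6573 to 1608 and 1508 of 6864 with DESeq2. They were 1602 and 1518 of 6582 with all 9 libraries, and 1907 and 1688 of 6573 at 0.05. With 1 library left out, 3 to 14 were higher and 0 to 3 lower, while 436 to 2038 of all entries were higher and 424 to 1879 lower. In pbp1Δ against WT, 20 were lower and 1 higher, but 1 and 0 with all 9 libraries, and 0 were higher without YMR31 and RSM22. With 1 library left out, 17 to 20 were lower and 0 to 1 higher, with medians between -0.39 and -0.35, and the median was -0.34 with upper-quartile scaling. In pab1Δpbp1Δ against WT, 7 were lower and 5 higher, and 9 were higher with upper-quartile scaling, 8 with all 9 libraries and 9 at an adjusted p under 0.05. The lower calls moved both ways: RSM24 and RSM25 were lost with upper-quartile scaling, and MRP4 and MRPS5 were gained with DESeq2 and with all 9 libraries. Of all entries, 1428 of 6558 were higher, against 1896 of 6582 with all 9 libraries and 2089 of 6558 at 0.05. With 1 library left out, 4 to 11 were lower and 3 to 7 higher, while 744 to 2014 of all entries were lower and 643 to 2181 higher. Upper-quartile scaling moved the median of all entries to 0.21 in pab1Δpbp1Δ against pbp1Δ (1682 higher and 663 lower, against 1185 and 1100) and to 0.28 against WT (2086 and 837, against 1428 and 1417). In pbp1Δ against WT it gave 411 and 270, against 343 and 401. The replicate block gave 0 lower and 10 higher in pab1Δpbp1Δ against pbp1Δ, 23 lower and 1 higher in pbp1Δ against WT, and 8 lower and 6 higher in pab1Δpbp1Δ against WT. Over all entries the block gave 1049 lower and 1104 higher, 796 and 652, and 1455 and 1466, in the same order of comparisons. Deviations of same-numbered libraries correlated above 0.1 in 0 of 3 pairs in pab1Δpbp1Δ against pbp1Δ, 1 of 3 in pbp1Δ against WT and 1 of 3 between pab1Δpbp1Δ and WT, so the numbers were not taken to pair the samples. Between pab1Δpbp1Δ and WT, however, same-numbered pairs ranged from 0.06 to 0.13 and all other pairs were negative, so each library correlated best with its own number. Counts over all entries moved beyond 1.5 times in 18 of 45 alternatives.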
